A study of Mus musculus with 4 samples.

Results

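The immediate early genes described here are 10 genes, Fos, Fosb, Jun, Junb, Jund, Egr1, Atf3, Ier2, Ier3 and Dusp1, chosen by symbol as genes that respond to tissue handling, and all 10 were present among the 14519 genes of the deposited table. They were measured in 2 libraries of Reg4+ DCS (deep crypt secretory) cells and 2 libraries of Lgr5+ cells, both sorted from the epithelium of the mouse colon. The sort used Reg4-dsRed for the mucus-making DCS cells of the crypt base and Lgr5-GFP, a second fluorescent reporter, for the stem cells that lie between them. Genotype beyond these reporters, strain, sex, age and the number of animals behind a library were not given in the sources used here, nor was the way the tissue was dissociated or how long it took. Cells were sorted into Trizol and their RNA was read by CEL-seq, which amplifies RNA linearly and counts transcripts by their 3′ ends, so that long genes gain no reads by their length. Values are RPM, read counts scaled so that every library has the same total.

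Immediate early genes are transcribed within minutes of a stimulus by transcription factors that the cell already holds, chiefly the serum response factor with its ternary complex partners and CREB, which MAP kinases and other kinases switch on. Growth factors, cytokines, osmotic and mechanical stress and the enzymatic dissociation of a tissue all induce them, and their mRNAs are short-lived. Fos and Fosb belong to the Fos family and Jun, Junb and Jund to the Jun family of leucine zipper proteins, which pair with one another to form the transcription factor AP-1. Egr1 is a zinc finger transcription factor, Atf3 a stress-induced leucine zipper factor, Ier2 and Ier3 are small immediate early proteins of which Ier3 acts in cell survival, and Dusp1 is a phosphatase that switches MAP kinases off.

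Among the sequences provided with the reference, RefSeq promoters on GRCm38.p6 (the assembly also called mm10) were matched by symbol for 8 of the 10 genes, all but Egr1 and Ier2. The 250 bases before the annotated start are shown for 6 of them, the AP-1 genes Fos, Fosb, Jun and Junb, Dusp1 with the largest difference between the populations, and Ier3, which differed least. Capitals mark TGACG on either strand (the core that CREB and ATF proteins bind, also within the full element TGACGTCA), TGACATCA (the AP-1-like element known from the Jun promoter), GCGNGGGCG (the Egr motif) and TATAAA.
Fos (chr12:85473640-85473889, plus strand): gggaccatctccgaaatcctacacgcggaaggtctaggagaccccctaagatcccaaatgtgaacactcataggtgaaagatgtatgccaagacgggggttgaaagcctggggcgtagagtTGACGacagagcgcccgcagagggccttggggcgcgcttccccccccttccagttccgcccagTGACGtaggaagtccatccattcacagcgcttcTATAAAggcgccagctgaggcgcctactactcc
Fosb (chr7:19310046-19310295, minus strand): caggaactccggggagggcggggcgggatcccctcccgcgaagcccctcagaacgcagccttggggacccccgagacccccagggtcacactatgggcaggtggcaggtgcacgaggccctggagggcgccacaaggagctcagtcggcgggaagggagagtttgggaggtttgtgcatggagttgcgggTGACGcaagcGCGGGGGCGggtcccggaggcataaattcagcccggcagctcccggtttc
Jun (chr4:95052223-95052472, minus strand): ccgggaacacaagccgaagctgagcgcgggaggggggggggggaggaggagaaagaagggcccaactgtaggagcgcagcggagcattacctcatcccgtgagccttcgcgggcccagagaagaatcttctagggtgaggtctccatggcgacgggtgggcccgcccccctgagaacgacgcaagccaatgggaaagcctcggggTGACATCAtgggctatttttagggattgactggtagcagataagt
Junb (chr8:84978749-84978998, minus strand): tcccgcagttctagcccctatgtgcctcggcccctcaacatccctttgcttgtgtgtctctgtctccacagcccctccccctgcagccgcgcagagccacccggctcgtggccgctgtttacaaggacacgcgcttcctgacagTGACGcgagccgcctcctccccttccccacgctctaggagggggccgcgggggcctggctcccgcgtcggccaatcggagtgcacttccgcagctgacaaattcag
Dusp1 (chr17:26508473-26508722, minus strand): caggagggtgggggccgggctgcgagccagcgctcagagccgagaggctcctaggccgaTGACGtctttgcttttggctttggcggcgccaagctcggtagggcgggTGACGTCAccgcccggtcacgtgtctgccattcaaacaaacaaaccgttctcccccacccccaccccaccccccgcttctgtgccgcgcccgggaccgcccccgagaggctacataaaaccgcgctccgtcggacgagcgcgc
Ier3 (chr17:35821463-35821712, plus strand): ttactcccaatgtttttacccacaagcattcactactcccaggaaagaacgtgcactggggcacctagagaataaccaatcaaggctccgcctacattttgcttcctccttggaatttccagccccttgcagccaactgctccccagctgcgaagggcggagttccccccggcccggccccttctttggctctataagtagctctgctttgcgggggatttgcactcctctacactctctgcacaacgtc
At least 1 TGACG lay in this window for 5 of the 8 genes (Fos, Fosb, Junb, Atf3 and Dusp1), and in 17.8% of all 32851 promoters searched in the same way. The full palindrome TGACGTCA, which contains TGACG on both strands, occurred in Dusp1 alone of the 8, at bases -143 to -136 from the start, and in 1.55% of all promoters. Fos carried TGACG at -129 and -66 and a TATAAA at -33, Fosb carried TGACG at -60 beside the Egr motif at -50, and Jun carried TGACATCA at -45. TGACATCA occurred in 2.93%, the Egr motif in 4.70% and TATAAA in 12.4% of all promoters, on either strand. Neither the AP-1 consensus TGANTCA (6.75% of all promoters) nor the CArG box of the serum response factor (1.47%) was found in the window of any of the 8 genes. For Jund that window says nothing of the nearest GENCODE start, which lies 1210 bases further along the gene, whereas for the other 7 a GENCODE start lay within 30 bases of the RefSeq start. A match is a description of these letters and not a measured binding site. The window is short. Ier3 held 0 of the motifs searched, as did Jund, which was called higher in Reg4+ DCS cells.

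The columns of Reg4+ DCS replicates 1 and 2 had the form of means of 2 separately scaled parts (5523304 and 1890960 reads, 3004289 and 2443971 reads), while the RPM steps of Lgr5+ replicates 1 and 2 gave 5205723 and 7955340 reads in all. Each of the 10 genes rested on at least 887 reads in every library and at most 44170, and reads need not be independent molecules, since no molecular identifiers are named by the labels. The sort markers followed the labels, with Reg4 at 6187 and 5899 RPM in Reg4+ DCS cells against 796 and 363 RPM in Lgr5+ cells, and Lgr5 at 0.989 and 3.13 RPM against 46.5 and 48.8 RPM. In bulk samples, fewer cells of a type and less RNA per cell cannot be told apart.

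The 10 genes were abundant in both populations and 9 of them lay higher in Reg4+ DCS cells. Together they took 1.72% and 1.99% of the RPM total in the Reg4+ DCS libraries, against 1.22% and 0.801% in the Lgr5+ libraries, a 1.83-fold difference of the mean sums. Both Reg4+ DCS libraries lay above both Lgr5+ libraries for 9 of the 10 genes, Ier3 being the exception, and this was so for 16.1% of the 10183 genes tested. The order of Ier3, with both Reg4+ DCS libraries below, was that of 56.2% of them. With limma on log2(RPM + 1) and the Benjamini-Hochberg adjustment over those 10183 genes, 6 of the 10 rose in Reg4+ DCS cells (Fos, Fosb, Jund, Egr1, Atf3 and Dusp1) and 0 were called higher in Lgr5+ cells, where 7.18% and 26.9% of all genes tested were called in these directions. Of the 4 that did not pass, Jun and Junb had an unadjusted limma p under 0.05 and Ier2 and Ier3 did not. None of the 10 was called higher in Lgr5+ cells at an unadjusted p under 0.05 or by edgeR. The median log2 fold change (Reg4+ DCS minus Lgr5+) was 0.93 over the 10 genes and -0.47 over all genes tested.

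**Figure D1:**
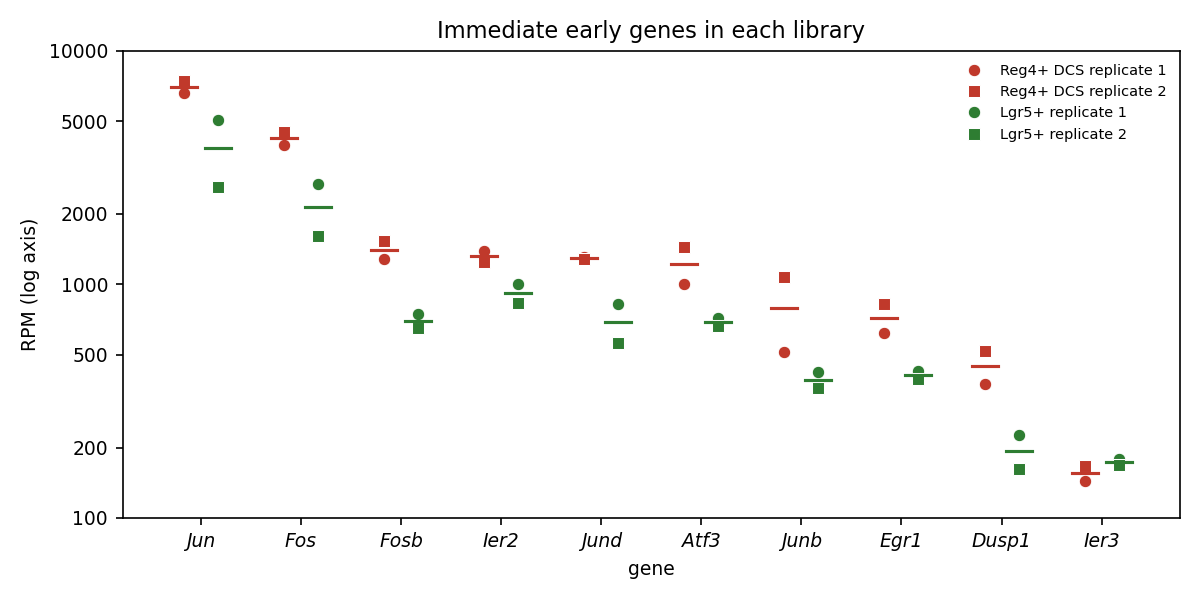
RPM (log axis) of the 10 immediate early genes in each library, ordered by their mean in Reg4+ DCS cells, with red marks for Reg4+ DCS and green marks for Lgr5+ libraries, circles for replicate 1, squares for replicate 2 and a bar at the mean of each pair. The red marks lie above the green ones for 9 genes, Jun and Fos stand at the top with the widest gap between the Lgr5+ libraries, and Ier3 lies slightly lower in Reg4+ DCS cells.

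Fos, the partner that gives AP-1 its strong activity, was among the most abundant transcripts of DCS cells. It had 3967 and 4468 RPM in Reg4+ DCS cells, against 2679 and 1609 RPM in Lgr5+ cells. The groups did not overlap, and the Lgr5+ libraries lay further apart than the Reg4+ DCS libraries. Mean Fos was 4218 ± 354 RPM in Reg4+ DCS cells against 2144 ± 757 RPM in Lgr5+ cells (SD, n = 2 per group, as for every mean here), a 1.97-fold difference (log2 fold change 1.02, SE 0.32, limma adjusted p = 0.0407). Leaving out Reg4+ DCS replicate 1 (adjusted p = 0.178), Reg4+ DCS replicate 2 (0.193) or Lgr5+ replicate 2 (0.145) ended the call. By rank, Fos was the 20th and 17th most abundant of the 14519 genes in the Reg4+ DCS libraries, and the 25th and 73rd in the Lgr5+ libraries.

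Fosb, the second Fos family member listed, had 1280.4 and 1535 RPM in Reg4+ DCS cells against 742 and 650.0 RPM in Lgr5+ cells. The groups were well apart, and the Lgr5+ libraries lay closer together than they did for Fos. The means differed 2.02-fold, with 1408 ± 180 RPM in Reg4+ DCS cells against 696 ± 65.4 RPM in Lgr5+ cells (log2 fold change 1.01, SE 0.24, limma adjusted p = 0.0153). Without Reg4+ DCS replicate 1 the adjusted p was 0.0713, and without Reg4+ DCS replicate 2 it was 0.0941. The Fosb level was 0.323 and 0.344 of the Fos level in the Reg4+ DCS libraries, against 0.277 and 0.404 in the Lgr5+ libraries, so this ratio did not separate the populations.

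Jun, the Jun family member that is itself an AP-1 target, was the most abundant of the 10 genes in every library. It had 6598 and 7390.3 RPM in Reg4+ DCS cells against 5028 and 2613 RPM in Lgr5+ cells. All Reg4+ DCS values were above the Lgr5+ values, but Lgr5+ replicate 1 lay closer to the Reg4+ DCS libraries than to Lgr5+ replicate 2 (ratio of the Lgr5+ replicates 1.92). The mean was 1.83-fold higher in Reg4+ DCS cells and missed the threshold (log2 fold change 0.95, SE 0.37, limma adjusted p = 0.0784). Scaling by the median of ratios, which divides each library by 1 factor so that the median gene is level, let it pass (adjusted p = 0.0310). It was also called by edgeR on the recovered reads (0.0423) and without Lgr5+ replicate 1 (0.00100).

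Junb, a Jun protein that can restrain the activity of Jun, had 515 and 1075 RPM in Reg4+ DCS cells against 420.3 and 361 RPM in Lgr5+ cells. Here the wide gap lay between the Reg4+ DCS libraries, whose replicate 2 was 2.09 times replicate 1. The 2.03-fold difference of means missed the threshold (log2 fold change 0.93, SE 0.34, limma adjusted p = 0.0674). It fell to 1.32-fold without Reg4+ DCS replicate 2, and without Reg4+ DCS replicate 1 it was 2.75-fold and was called (adjusted p = 0.0327), as it was without Lgr5+ replicate 1 (0.0259). Median-of-ratios scaling (adjusted p = 0.00890) and edgeR (0.0183) also called it. Junb (mm10 chromosome 8, 84974484 to 84978718, minus strand) and Prdx2 on the other strand overlap at their 3′ ends over up to 173 exon bases, and whether counting used the strand was not given in the sources used here. Prdx2 itself had 120.1 and 118 RPM in Reg4+ DCS cells against 161 and 185 RPM in Lgr5+ cells, an order opposite to that of Junb. Dusp1 (26505590 to 26562128, minus strand) overlaps Ergic1 on the other strand over up to 11 exon bases. That overlap (26561489 to 26562128) lies at the 5′ end of the Dusp1 annotation, not at the 3′ end that CEL-seq counts. Ergic1 had 291 and 303 RPM in Reg4+ DCS cells against 105 and 142 RPM in Lgr5+ cells, the order of Dusp1 (limma adjusted p = 0.00557).

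Jund, the Jun protein that many resting cells hold, had 1310.0 and 1286 RPM in Reg4+ DCS cells against 822 and 559 RPM in Lgr5+ cells. The Reg4+ DCS libraries were nearly level, and the Lgr5+ libraries were 1.47-fold apart. Jund rose 1.88-fold (log2 fold change 0.94, SE 0.26, limma adjusted p = 0.0286), and it was no longer called when fitted without Reg4+ DCS replicate 1 (adjusted p = 0.150), Reg4+ DCS replicate 2 (0.110) or Lgr5+ replicate 2 (0.126). The annotation places antisense genes on the other strand of Jun (Junos) and of Jund (Gm11175), from which reads could not be told apart if strand was not used. Summed over the listed members alone, Jun, Junb and Jund took 8424 and 9751 RPM in Reg4+ DCS cells against 6271 and 3534 RPM in Lgr5+ cells. Fos and Fosb took 5248 and 6003 RPM against 3422 and 2259 RPM. The ratio of the Jun sum to the Fos sum was 1.61 and 1.62 in the Reg4+ DCS libraries, which lay between the 1.83 and 1.56 of the Lgr5+ libraries.

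Egr1, which responds to the same serum response factor input as Fos, had 619.5 and 821 RPM in Reg4+ DCS cells against 425 and 391 RPM in Lgr5+ cells. The lower Reg4+ DCS library was still above both Lgr5+ libraries, which lay close together. The means were 1.76-fold apart (log2 fold change 0.80, SE 0.24, limma adjusted p = 0.0346). Atf3, induced by cell stress and by the integrated stress response, had 1000.1 and 1441 RPM in Reg4+ DCS cells against 718 and 661 RPM in Lgr5+ cells. It too kept the groups apart, with the wider gap between the Reg4+ DCS libraries. It rose 1.77-fold (log2 fold change 0.80, SE 0.26), just inside the threshold at a limma adjusted p of 0.0468. Neither was called in the fits that left out Reg4+ DCS replicate 1 (adjusted p = 0.0747 for Egr1 and 0.0806 for Atf3), Reg4+ DCS replicate 2 (0.166 and 0.237) or Lgr5+ replicate 2 (0.0837 and 0.0889).

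Dusp1, the phosphatase that ends MAP kinase signalling, had the largest difference of the 10 genes. It had 375 and 518 RPM in Reg4+ DCS cells against 226 and 162 RPM in Lgr5+ cells. The 2 replicates of each population differed by a similar ratio, 1.38 in Reg4+ DCS and 1.40 in Lgr5+ cells. The means, 446 ± 101 RPM in Reg4+ DCS cells against 194 ± 45.8 RPM in Lgr5+ cells, differed 2.30-fold (1.93 to 2.76 without any 1 library; log2 fold change 1.20, SE 0.27, limma adjusted p = 0.0121). It held its call without each library but Reg4+ DCS replicate 2 (adjusted p = 0.0727). Its abundance rank was 329 and 243 in the Reg4+ DCS libraries and 630 and 926 in the Lgr5+ libraries.

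Ier2 and Ier3 differed in direction on the RPM scale, and the difference between them was not tested. Ier2 had 1389.8 and 1249 RPM in Reg4+ DCS cells against 1007 and 835 RPM in Lgr5+ cells. Its groups were apart, but its 1.43-fold difference did not pass with limma (log2 fold change 0.52, SE 0.24, adjusted p = 0.126), whereas it did when scaled by the median of ratios (adjusted p = 0.0248) and with edgeR (0.0384). Ier3 had 144 and 166 RPM in Reg4+ DCS cells against 179 and 168 RPM in Lgr5+ cells. Its 4 libraries lay within a narrow range, with both Reg4+ DCS libraries just under both Lgr5+ libraries. Its log2 fold change was -0.16 with a 95% interval from -0.67 to 0.34 (SE 0.22, limma adjusted p = 0.578). That direction turned with edgeR (0.28, adjusted p = 0.352) and when libraries were scaled by the median of ratios (0.34, adjusted p = 0.241).

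**Figure D2:**
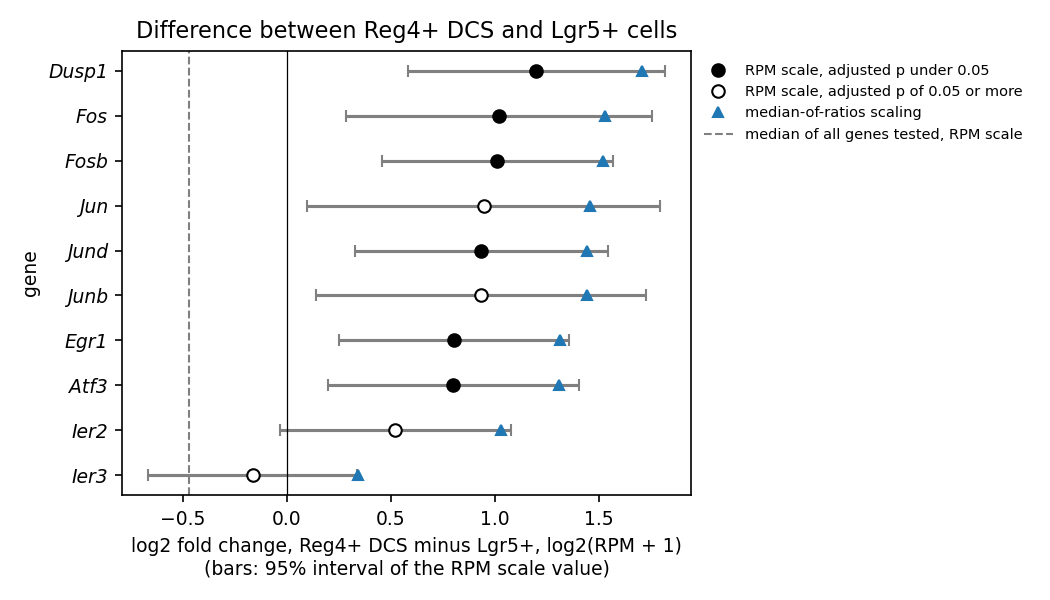
Log2 fold change of each immediate early gene (circles, Reg4+ DCS minus Lgr5+ cells, of log2(RPM + 1), filled where the limma adjusted p was under 0.05) with its unadjusted 95% interval, the value under median-of-ratios scaling (triangles) and the median of all genes tested (dashed line, -0.47). The intervals of Ier2 and Ier3 include 0, and the scaling moves every gene to the right by a similar amount.

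The order of levels among the 10 genes was similar in both populations. In Reg4+ DCS cells Jun stood above Fos, and Fosb, Ier2, Jund and Atf3 followed with ranges that overlapped. Junb overlapped Atf3 above it and Egr1 and Dusp1 below it, and Ier3 came last without overlap. In Lgr5+ cells the ranges of Jun and Fos overlapped, Ier2 stood alone below them, and Fosb, Jund and Atf3 overlapped, as did Egr1 with Junb and Dusp1 with Ier3.

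The scale and the single libraries bore on how many genes passed. On the RPM scale abundant transcripts lower all others, and 9 goblet cell genes (Muc2, Tff3, Fcgbp, Zg16, Spink4, Agr2, Clca3, Spdef and Atoh1) alone summed to 210619 and 139466 RPM in Reg4+ DCS cells against 6407 and 2478 RPM in Lgr5+ cells. Scaling by the median of ratios moved the median of all genes tested to 0.02 and that of the 10 genes to 1.44. Under it 9 of the 10 were called higher in Reg4+ DCS cells, all but Ier3, where 15.6% of all genes tested were. With edgeR's quasi-likelihood test on recovered reads the same 9 genes were called, where 13.7% of all genes were. Leaving out a library left 0 of the 10 called without Reg4+ DCS replicate 2 (3.5% of all genes tested), 2 without Reg4+ DCS replicate 1 (Junb and Dusp1; 3.59%), 2 without Lgr5+ replicate 2 (Fosb and Dusp1; 5.97%) and 8 without Lgr5+ replicate 1 (all but Ier2 and Ier3; 7.58%). In those 4 fits the lone library of a group is assumed to vary like the pair of the other, and the same 9 genes stayed higher in Reg4+ DCS cells in each.

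Replicates of a population also differed in the immediate early genes. All 10 were higher in Lgr5+ replicate 1 than in Lgr5+ replicate 2, by 1.07-fold for Ier3 to 1.92-fold for Jun, while 53.0% of all genes tested were higher in that library. Lgr5+ replicate 1 also had more of the markers of other epithelial cells, with 9 tuft cell markers summing to 1050.0 RPM against 299 RPM in Lgr5+ replicate 2 and 9 absorptive colonocyte markers to 1078 RPM against 218 RPM. The 9 goblet cell markers summed to 6407 RPM in Lgr5+ replicate 1 against 2478 RPM in Lgr5+ replicate 2, and Reg4 had 796 RPM against 363 RPM. The part of such cells in the immediate early gene levels was not tested. Between the Reg4+ DCS libraries, 8 of the 10 genes were higher in replicate 2, as were 73.6% of all genes tested. Within the column of Reg4+ DCS replicate 1 the 2 parts could be read for all 10 genes. They differed by 1.09-fold for Ier3 to 1.59-fold for Dusp1, with 6 genes higher in the larger part. In Reg4+ DCS replicate 2 the parts could be read for 3 genes (Dusp1, Egr1 and Ier3), with 0 higher in the larger part. There they differed by 1.09-fold for Egr1 to 1.48-fold for Ier3 (134 and 198 RPM). What the parts were was not given in the sources used here.

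Markers of leukocytes and of stroma summed to less in Reg4+ DCS cells, in part through values listed at 0. Whether such cells bore on the immediate early gene levels was not tested. Of 18 leukocyte markers 10 were in the table. They summed to 25.6 and 24.1 RPM in Reg4+ DCS cells against 117 and 85.0 RPM in Lgr5+ cells, and Cd14 was most of each sum, with 25.0 and 23.3 RPM in Reg4+ DCS cells against 68.8 and 71.1 RPM in Lgr5+ cells. The 9 others summed to 0.627 and 0.704 RPM in Reg4+ DCS cells against 48.0 and 13.8 RPM in Lgr5+ cells. Of these, 6 were listed at 0 for both Reg4+ DCS replicates, among them Ptprc (CD45), which had 40.1 and 9.55 RPM in Lgr5+ cells. Among all genes of the series, 1641 were listed at 0 for both Reg4+ DCS replicates and 8 for 1 of them alone, and since the labels do not say how these zeros arose, they are not read as measured levels. Of 11 stroma and vessel markers 6 were in the table, with sums of 4.82 and 4.53 RPM in Reg4+ DCS cells against 10.6 and 7.17 RPM in Lgr5+ cells. Of 7 erythrocyte markers 1, Alas2, was in the table, with 0.453 and 0.166 RPM in Reg4+ DCS cells and listed at 0 in Lgr5+ cells. The 9 tuft cell markers in the table summed to 2.30 and 1.98 RPM in Reg4+ DCS cells against 1050.0 and 299 RPM in Lgr5+ cells, and the 8 enteroendocrine markers to 18.1 and 26.4 RPM against 73.4 and 35.6 RPM. Such zeros for both Reg4+ DCS replicates were listed for 6 of these tuft cell, 2 of these enteroendocrine and 3 of the stroma and vessel markers. The 8 stem cell markers summed to 264 and 448 RPM in Reg4+ DCS cells against 983 and 1180.0 RPM in Lgr5+ cells. Slc12a2, the 1 stem cell marker that was not called, made up most of the Reg4+ DCS sums, and the 7 others summed to 45.4 and 79.4 RPM against 631 and 775 RPM. The 9 absorptive colonocyte markers summed to 476 and 575 RPM in Reg4+ DCS cells against 1078 and 218 RPM in Lgr5+ cells. Guca2a alone had 339 and 505 RPM of this in Reg4+ DCS cells against 211 and 67.5 RPM in Lgr5+ cells, and the 8 others summed to 137 and 69.8 RPM against 867 and 150 RPM.

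The counts of the lists that follow stand beside 7.18% of all genes tested called higher and 26.9% called lower in Reg4+ DCS cells, or 15.6% and 12.7% under median-of-ratios scaling and 13.7% and 13.4% with edgeR, and no list was tested against other genes. Of 25 other leucine zipper factors, 22 were in the table and 19 were tested. In Reg4+ DCS cells 6 rose (31.6%) and 3 fell (15.8%, less than the share of all genes; median log2 fold change -0.20), or 7 and 0 under median-of-ratios scaling (median 0.28). Ddit3, the CHOP factor of the unfolded protein response, had 194 and 240.5 RPM in Reg4+ DCS cells against 58.4 and 53.7 RPM in Lgr5+ cells (3.88-fold, limma adjusted p = 0.000888). Crem, a CREB-related modulator with early inducible isoforms, had 38.1 and 75.2 RPM in Reg4+ DCS cells against 12.1 and 15.2 RPM in Lgr5+ cells (4.15-fold, limma adjusted p = 0.00586). Both genes kept the groups apart, although the Reg4+ DCS libraries of Crem differed widely. Nfil3, a repressor of the same protein class, was 2.21-fold higher in Reg4+ DCS cells (adjusted p = 0.0194). Batf2, an AP-1 inhibitor, was lower at 2.42 and 3.93 RPM against 12.1 and 6.29 RPM (adjusted p = 0.0447). Batf2 met the filter of 5 RPM only through the Lgr5+ libraries. It was not called under median-of-ratios scaling (limma adjusted p = 0.128) or with edgeR (0.135). Fosl2, the other Fos family member tested, was chosen after its values were seen. It had 151 and 167 RPM in Reg4+ DCS cells against 133 and 157 RPM in Lgr5+ cells (log2 fold change 0.14, limma adjusted p = 0.652, or 0.0602 under median-of-ratios scaling). Fosl1 was below the filter, with 0.0905 and 0.832 RPM in Reg4+ DCS cells against 5.19 and 4.53 RPM in Lgr5+ cells.

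Among 21 other immediate early transcription factors 18 were tested, and 2 rose, 2 fell (11.1% each) and 14 did not pass (median 0.37). The share that rose was near that of all genes and the share that fell was below it, while scaling by the median of ratios gave 9 (50.0%) and 0. Klf4, a factor of goblet cell differentiation that is also serum-inducible, had 819 and 907 RPM in Reg4+ DCS cells against 355 and 144 RPM in Lgr5+ cells (limma adjusted p = 0.00795). This 3.46-fold difference was 6.01-fold without Lgr5+ replicate 1 and 2.43-fold without Lgr5+ replicate 2. Klf2, a shear-responsive factor, had 119 and 91.3 RPM in Reg4+ DCS cells against 36.7 and 23.6 RPM in Lgr5+ cells (adjusted p = 0.00322). Ier5l, at 2.24 and 6.78 RPM in Reg4+ DCS cells against 21.9 and 11.4 RPM in Lgr5+ cells, and Hes1, the Notch target, at 128 and 78.9 RPM against 256 and 216 RPM, fell (adjusted p = 0.0274 and 0.0130). Ier5l was 0.271 times its Lgr5+ mean, or 0.134 times without Reg4+ DCS replicate 2 and 0.407 times without replicate 1. Nr4a1, an orphan nuclear receptor induced as fast as Fos and chosen after its values were seen, did not pass, with 458 and 937 RPM in Reg4+ DCS cells against 559 and 377 RPM in Lgr5+ cells (adjusted p = 0.294). Its groups overlapped on the RPM scale, unlike those of Fos, and it passed under median-of-ratios scaling (limma adjusted p = 0.0445).

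Of 37 feedback and signalling genes 32 were tested, and 5 rose (15.6%) and 1 fell (3.13%; median 0.10), or 12 (37.5%) and 0 under median-of-ratios scaling, beside the shares of all genes given above. Gadd45g, a stress sensor that binds MAP kinase kinases, had 333 and 281 RPM in Reg4+ DCS cells against 69.3 and 70.0 RPM in Lgr5+ cells, which was 4.40-fold (limma adjusted p = 0.000514). Cyr61, a matricellular YAP and serum response factor target, was 2.80-fold higher (adjusted p = 0.00505), Dusp6, a phosphatase for ERK, 2.78-fold (0.00621) and Plk3, a stress kinase, 2.46-fold (0.0323). Without Reg4+ DCS replicate 2, Plk3 was 1.60-fold higher (adjusted p = 0.146). Nfkbia, the inhibitor of NF-κB and another choice made with its values known, overlapped between groups on the RPM scale. It had 808 and 714 RPM in Reg4+ DCS cells against 804 and 473 RPM in Lgr5+ cells (limma adjusted p = 0.444, or 0.0833 under median-of-ratios scaling).

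Of 11 tested factors that shorten the life of early mRNAs, 2 rose and 2 fell (18.2% each, the share that fell being below that of all genes; median -0.02), or 5 (45.5%) and 0 under median-of-ratios scaling (median 0.48). Btg2, an anti-proliferative adaptor of mRNA deadenylation, had 699.9 and 705 RPM in Reg4+ DCS cells against 257 and 211 RPM in Lgr5+ cells (3.002-fold, limma adjusted p = 0.00176). Tob1, a related adaptor, was 2.09-fold higher (adjusted p = 0.0183). Zfp36l2, which binds AU-rich elements, had 70.2 and 125 RPM in Reg4+ DCS cells against 207 and 299.8 RPM in Lgr5+ cells (adjusted p = 0.0132), and Cnot1, the scaffold of the deadenylase complex, had 59.6 and 77.1 RPM against 112 and 126.3 RPM (adjusted p = 0.0346). Of 21 tested kinases and serum response factor partners upstream of the early genes, 2 rose (9.52%, near the share of all genes) and 0 fell with limma (median -0.14), or 5 (23.8%) and 0 under median-of-ratios scaling (median 0.36) and 4 and 0 with edgeR, and 3 were lower at an unadjusted limma p under 0.05. The 2 that rose were Map3k5, a stress-activated kinase upstream of JNK and p38, 2.38-fold higher (adjusted p = 0.00804), and Map2k1, the MEK1 kinase that activates ERK, 1.84-fold higher (adjusted p = 0.0201).

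Of 11 heat shock genes, another group induced by cell stress, 0 were called higher and 3 fell in Reg4+ DCS cells with limma (median -0.60). The share that fell, 27.3%, was near the 26.9% of all genes, so this count is no result about the group. The 3 were the constitutive chaperones Hspd1 (0.341 times the Lgr5+ mean, adjusted p = 0.00393), Hsp90ab1 (0.409, adjusted p = 0.0121) and Hspa8 (0.513, adjusted p = 0.0354). At an unadjusted limma p under 0.05, 1 was higher, and both edgeR and median-of-ratios scaling called 2 higher and 1 lower. The inducible genes Dnajb1 and Hspb1, picked with their values known, were higher on average in Reg4+ DCS cells. Other genes of this list that did not pass were lower on average. Among them were Hsp90aa1 (log2 fold change -0.60, limma adjusted p = 0.246) and Hsph1 (-0.75, 0.167). Dnajb1, a co-chaperone of Hsp70, had 229 and 512 RPM in Reg4+ DCS cells against 195 and 116 RPM in Lgr5+ cells (log2 fold change 1.18, limma adjusted p = 0.0525, or 0.00808 under median-of-ratios scaling). Hspb1, a small heat shock protein, had 22.9 and 143 RPM in Reg4+ DCS cells against 26.9 and 12.4 RPM in Lgr5+ cells (log2 fold change 1.60, limma adjusted p = 0.123, or 0.0489 under that scaling). The groups of Hspb1 overlapped on the RPM scale. All 11 genes were higher in Reg4+ DCS replicate 2 than in replicate 1, as were 73.6% of all genes tested. The inducible gene Hspa1a had 58.1 and 807 RPM in Reg4+ DCS cells against 428 and 169 RPM in Lgr5+ cells. Its values ran over a 13.9-fold range between the Reg4+ DCS libraries alone, where the largest ratio among the immediate early genes was the 2.09 of Junb. Hspa1b, its neighbour and near copy, had 34.9 and 358 RPM in Reg4+ DCS cells against 179 and 58.6 RPM in Lgr5+ cells, and reads of the 2 copies may be split between them. For Hspa1a and Hspa1b, Lgr5+ replicate 1 was the higher Lgr5+ library, as for the 10 immediate early genes and 53.0% of all genes tested. Of the 11 heat shock genes, Hspa8, Hspe1, Hspd1 and Dnaja1 were lower in that library and the others higher.

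**Figure D3:**
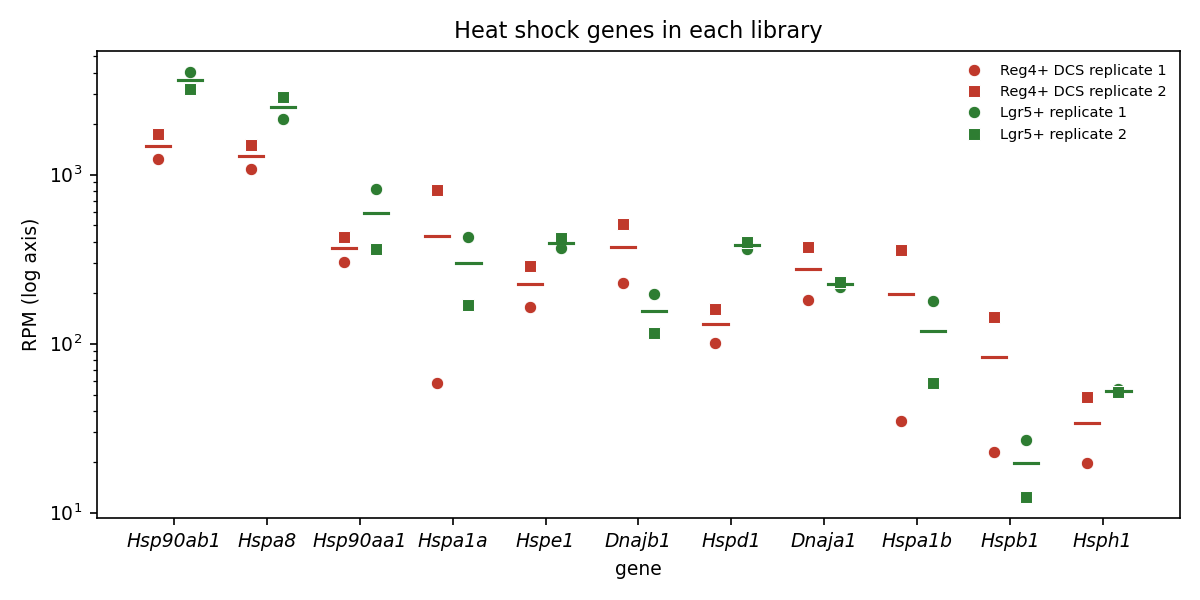
RPM (log axis) of 11 heat shock genes in each library, marked as in the plot of immediate early genes. Hsp90ab1, Hspa8 and Hspd1 are lower in both Reg4+ DCS libraries, and Hspa1a and Hspa1b have their highest and lowest values in the 2 Reg4+ DCS libraries.

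Without any of the 4 libraries in turn, Ddit3, Crem, Klf2, Gadd45g, Cyr61, Dusp6, Btg2, Map3k5 and Hspd1 held their calls. Of the other 12 genes named from these lists by the rule, each lost its call or its place in the test in at least 1 of the 4 fits. Without Reg4+ DCS replicate 1, 9 calls were lost (Batf2, Nfil3, Klf4, Ier5l, Zfp36l2, Cnot1, Map2k1, Hsp90ab1 and Hspa8, adjusted p from 0.0615 to 0.275). Without Reg4+ DCS replicate 2, 8 were (Batf2, Nfil3, Klf4, Hes1, Plk3, Tob1, Map2k1 and Hspa8, 0.0556 to 0.146). The fit without Lgr5+ replicate 1 lost 2 (Ier5l and Cnot1, 0.0560 to 0.101), and that without Lgr5+ replicate 2 lost 5 (Nfil3, Tob1, Cnot1, Map2k1 and Hspa8, 0.0613 to 0.129). Batf2 was below the filter without either Lgr5+ library. Under median-of-ratios scaling 14 of the 21 named genes held their calls. The 7 that lost it (Batf2, Ier5l, Hes1, Zfp36l2, Cnot1, Hsp90ab1 and Hspa8) were all lower in Reg4+ DCS cells on the RPM scale.

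**Figure D4:**
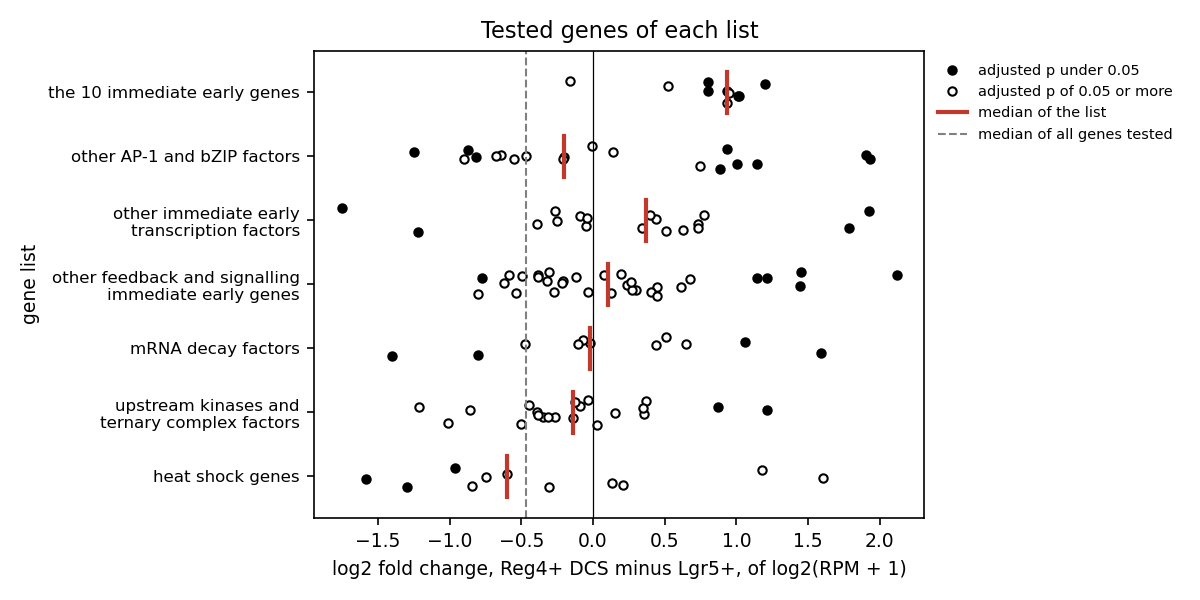
Log2 fold change (Reg4+ DCS minus Lgr5+, log2(RPM + 1) scale) of every tested gene of the 10 immediate early genes and of 6 other lists, filled where the limma adjusted p was under 0.05, with the median of each list (red bar), the median of all genes tested (dashed line, -0.47) and random vertical offsets. The immediate early genes have their median at 0.93 and the heat shock genes theirs at -0.60, and the other lists spread to both sides of 0.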

How the data were processed

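RNA of 4 sorted libraries (2 Reg4+ DCS, 2 Lgr5+) was measured by CEL-seq with 50 bp paired-end reads, per the labels' protocols. BWA 0.6.2-r126 and the build mm10 are named in the submitters' processing notes; the counting step, annotation, molecular identifiers, strand use and filters were not given in the sources used here. The authors deposited 1 table of RPM for 14519 genes, each column scaled by them to the same total. Of the Lgr5+ values, 100% came out as whole numbers of reads within 0.01 reads. Reg4+ DCS values were sums of 2 step sizes, decoded uniquely for 99.95% and 99.1% of genes (7 and 129 ambiguous). For ambiguous genes, 7 of the 10 members in Reg4+ DCS replicate 2 among them, the pair of counts with the nearest RPM in both parts was taken. The candidate read sums of those members differed by at most 7.16%.

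Genes with at least 5 RPM in at least 2 libraries (10183, all 10 members among them) were tested with limma 3.58.1 in R 4.3.3 (trend=TRUE, group as the only term) on log2(RPM + 1), a scale that understates changes of low genes, with a Benjamini-Hochberg adjusted p under 0.05 as the threshold for a call. Folds are ratios of mean RPM. With 2 libraries per group, p-values rest on the spread within pairs, pooled over both groups and drawn toward that of other genes; the design text calls the 2 rounds of sorting and library preparation biological replicates. Alternatives were other pseudocounts, filters, scaling and variance models, the replicate number as a block, leaving out each library, and edgeR 4.0.16 (quasi-likelihood test) on the recovered reads, which called 2755 genes. Tests were checked on simulated data. Named genes were the members, both sort markers, up to 4 called genes per list with the largest absolute log2 fold change, and the 5 genes nearest in profile. The members and lists were chosen with earlier results of these data known. Gene coordinates are from GENCODE M21 (GRCm38), promoters from RefSeq.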

Additional observations from a re-analysis of the deposited data

How the results depend on the processing

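The count of immediate early genes called higher in Reg4+ DCS cells was 6 and ranged from 0 to 8 without 1 library. It was 2 with no filter on low values (Fosb and Dusp1), where 5.31% of all genes tested were called in that direction. Under the other alternatives the count lay between 4 and 9, within 1.5 times of 6. It was 4 without a trend in limma's variance (6.59% of all genes). It was 9 under median-of-ratios scaling (15.6%) and with edgeR (13.7%). The count called higher in Lgr5+ cells was 0 under all 12 alternatives. Over all genes, those called higher in Reg4+ DCS cells numbered 1591 under median-of-ratios scaling and 1393 with edgeR, against 731 as reported, and 349 to 706 without 1 library. Those called higher in Lgr5+ cells numbered 1297 and 1362, against 2744, and 1060 to 2288 without 1 library. Ier3 was the gene that reversed, to 0.34 under median-of-ratios scaling and 0.28 with edgeR. The causes were not tested, other than that this scaling raises the fold change of nearly every gene by a like amount. With the replicate number as a block, 9 of the 10 genes were called, and 910 and 3534 genes over the whole table. The labels do not say that a number marks a shared round, and across genes the deviations of same-numbered libraries correlated at 0.212. With 2 libraries per group, leaving out 1 changed the call of most of the 10 genes, each of which rested on at least 887 reads in every library.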

Other observations

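The genes outside the list whose profile over the 4 libraries lay nearest to the mean profile of the 10 immediate early genes (Euclidean distance of centred log2(RPM + 1) values over 10183 genes) were Pdlim7, Erlec1, Acbd3, Atp10b and Sec16a. Their distances were 0.0364 to 0.0934. Pdlim7, a cytoskeletal adaptor, had 24.5 and 30.1 RPM in Reg4+ DCS cells against 17.1 and 12.8 RPM in Lgr5+ cells. Erlec1, a lectin of endoplasmic reticulum quality control, had 39.0 and 51.1 RPM against 28.2 and 22.8 RPM. Acbd3, a Golgi scaffold, had 55.9 and 64.5 RPM in Reg4+ DCS cells against 38.8 and 30.3 RPM in Lgr5+ cells and was the 1 of the 5 called (limma adjusted p = 0.0440). Sec16a, which organises the sites where vesicles leave the endoplasmic reticulum, had 48.9 and 64.8 RPM against 35.9 and 29.3 RPM. A profile over 4 libraries is shared by many genes, and the likeness is a description.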
